A study of Mus musculus with 6 samples.

Results

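The adult globin genes Hba-a1, Hba-a2, Hbb-bs and Hbb-bt and the red cell precursor genes Alas2, Slc4a1 and Bpgm were followed through 6 mouse lung libraries as a measure of blood in the tissue. The members were taken by gene symbol, 7 of the 57180 rows of the table, and all 7 passed the filter on low counts. All 6 lung samples came from mice exposed to cigarette smoke: 3 were wild-type, and 3 carried the genotype given as FTO_OE, in which FTO, an RNA demethylase, is overexpressed. Not given in the sources used here are the mice's age, strain and sex, the promoter that drives the overexpression, the length of the exposure and whether the lungs were flushed of blood. No unexposed lungs were analysed here, so nothing below measures an effect of smoke.

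Haemoglobin is a tetramer of a pair of alpha chains and a pair of beta chains, each holding a haem group. Its genes are switched on in erythroblasts of the bone marrow, under GATA1 and KLF1, together with the enzymes of haem synthesis. The nucleus is then lost, and the reticulocyte enters the circulation with a store of messenger RNA that is used up as the cell matures. Lung holds a dense capillary bed, so a piece of lung carries globin RNA from blood, and low globin expression has also been described in alveolar epithelium. In bulk RNA, fewer cells of a type and less RNA per cell cannot be told apart, and a globin level is a measure of red cell RNA in the library, not a count of red cells.

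Libraries held 16731850 to 21444907 estimated counts. Levels are given as CPM, counts scaled to the library's total, and fold changes come from edgeR's quasi-likelihood test over 16989 genes with Benjamini-Hochberg adjustment. The labels do not tie each library to its own animal, so p-values measure only the spread between these samples, which may be technical. Fto stood at 64.5 to 69.1 CPM in the wild-type and 645.6 to 749.1 CPM in the FTO-overexpressing libraries, as labelled. Lung markers were abundant in all 6, with the surfactant gene Sftpc between 11904 and 14675 CPM, and 8 heart muscle markers summed to 70.7 to 1430 CPM, highest in overexpressing replicate 2.

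The 4 adult globin genes together took 2.26%, 1.54% and 0.856% of the counts of wild-type replicates 1, 2 and 3, and 3.27%, 1.81% and 0.368% of those of FTO-overexpressing replicates 1, 2 and 3. The highest and the lowest library, 8.87-fold apart, were both FTO-overexpressing, and the wild-type libraries lay between them. The mean summed level over 3 wild-type libraries was 15511 ± 7007 CPM (SD). Over the 3 overexpressing libraries it was 18171 ± 14498 CPM. The difference between the means was smaller than the spread within either group. Its sign also depended on the average taken: the ratio of overexpressing to wild-type was 1.17 for arithmetic means and 0.902 for geometric means.

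The alpha chain is encoded by Hba-a1 (ENSMUSG00000069919) and Hba-a2 (ENSMUSG00000069917). Hba-a2 was measured at 8523, 6120 and 3347 CPM in the wild-type and at 12518, 7300 and 1391 CPM in the overexpressing libraries. Hba-a1 was at 3154, 2168 and 1340 CPM in wild-type lungs, against 4384, 2576 and 577.2 CPM with overexpression. In both genes overexpressing replicate 1 was highest and overexpressing replicate 3 lowest, and the groups overlapped. The beta chain is encoded by Hbb-bs (ENSMUSG00000052305) and Hbb-bt (ENSMUSG00000073940). Hbb-bs stood at 9428, 6178 and 3375 CPM against 13671, 7110 and 1481 CPM, and Hbb-bt at 1472, 924.5 and 503.1 CPM against 2107, 1161 and 234.8 CPM. The order of the 6 libraries was the one seen for the alpha chain genes.

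**Figure D1:**
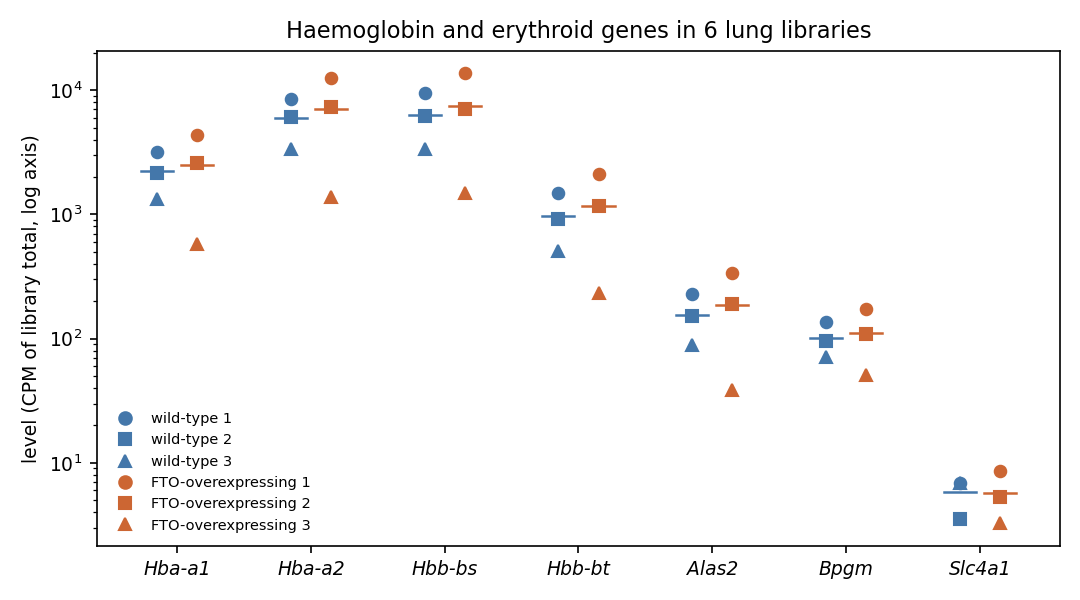
Level of each of the 7 genes in every library, in CPM of the library total on a log axis; symbols give the replicate number, colours the genotype, and short bars the mean of 3 libraries. FTO-overexpressing replicate 3 is the lowest and replicate 1 the highest library for every gene, and the 2 groups overlap throughout.

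Within the coding sequence, the 2 genes of each pair can hardly be separated by reads. The untranslated parts were not compared. The coding sequences of Hba-a1 and Hba-a2, 429 bases each in the GENCODE M21 transcripts, differ at 1 base, C381T, counted from the A of the start codon and written from Hba-a1 to Hba-a2. Those of Hbb-bs and Hbb-bt, 444 bases each, also differ at 1 base, C417T, written from Hbb-bs to Hbb-bt. Of all windows of 50 bases in the coding sequence, 87.1% were the same in both alpha genes and 92.9% in both beta genes. The stretches around these bases, 50 bases each with the differing base in capitals, show how little there is to tell the copies apart.
Hba-a1: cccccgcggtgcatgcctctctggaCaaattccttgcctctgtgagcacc
Hba-a2: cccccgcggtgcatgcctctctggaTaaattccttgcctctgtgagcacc
Hbb-bs: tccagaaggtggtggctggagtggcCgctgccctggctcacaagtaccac
Hbb-bt: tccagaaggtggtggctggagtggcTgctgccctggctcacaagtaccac
None of the 6 values of Hba-a1 or of Hbb-bs was whole, yet the sum of each pair was whole in 6 of 6 libraries (within 0.015 counts). The split within a pair is therefore an estimate, and the pair sums are the measured quantity. Hba-a1 held 25.9% to 29.3% of the alpha counts, with the highest shares in the 2 libraries with least globin and the lowest in the one with most. Hbb-bt held 13.0% to 14.0% of the beta counts. The beta pair took 45.3% to 48.3% of all adult globin counts.

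Alas2 (ENSMUSG00000025270), the erythroid form of the enzyme that starts haem synthesis, followed the globins almost exactly. It was at 227.4, 152.8 and 88.0 CPM in wild-type and at 334.2, 188.4 and 38.6 CPM in FTO-overexpressing lungs. Set against the globins of the same library, it stood at 9.93 to 10.5 counts per 1000 adult globin counts in all 6 libraries. So the 8.66-fold range of Alas2 between libraries shrank to a near-constant ratio. Per length of exon, the alpha pair was 173.8 to 186.2 times as abundant as Alas2 (CPM per kilobase). Alas2 overlaps Apex2, a DNA repair gene, in the RefSeq models, and its values were not whole, but Apex2 reached only 5.60 to 8.35 CPM. The sum of Alas2 and Apex2 was whole in 4 of 6 libraries (within 0.015 counts), against 6 of 6 for each globin pair.

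Bpgm (ENSMUSG00000038871) encodes the mutase that makes 2,3-bisphosphoglycerate, the metabolite that lowers the oxygen affinity of haemoglobin. It was at 135.7, 94.8 and 70.8 CPM in wild-type lungs, against 172.3, 108.1 and 50.9 CPM with overexpression. The order of the libraries was that of the globins, but the range was 3.39-fold. For each doubling of the summed globin level Bpgm rose by 0.55 on the log2 scale, against 0.98 for Alas2. Its ratio to the globins was therefore not constant, at 5.27 to 8.27 per 1000 globin counts in 5 libraries and 13.8 in overexpressing replicate 3.

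Slc4a1 (ENSMUSG00000006574), which encodes band 3, the anion exchanger and anchor of the red cell membrane skeleton, did not keep to this order. It was at 6.86, 3.56 and 6.93 CPM in the wild-type and at 8.57, 5.26 and 3.26 CPM in the overexpressing libraries. Wild-type replicate 3 had fewer globin counts than wild-type replicate 2 but more Slc4a1, 125 counts (95% exact Poisson interval 104.0 to 148.9) against 69 (53.7 to 87.3). These intervals cover counting error only. Per length of exon, Alas2 was 24.1 to 87.4 times as abundant as Slc4a1, and this ratio was lowest in the libraries with least globin, wild-type replicate 3 (25.9) and overexpressing replicate 3. Slc4a1 rested on 69 to 174 counts per library, so its level is the least precise of the 7.

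**Figure D2:**
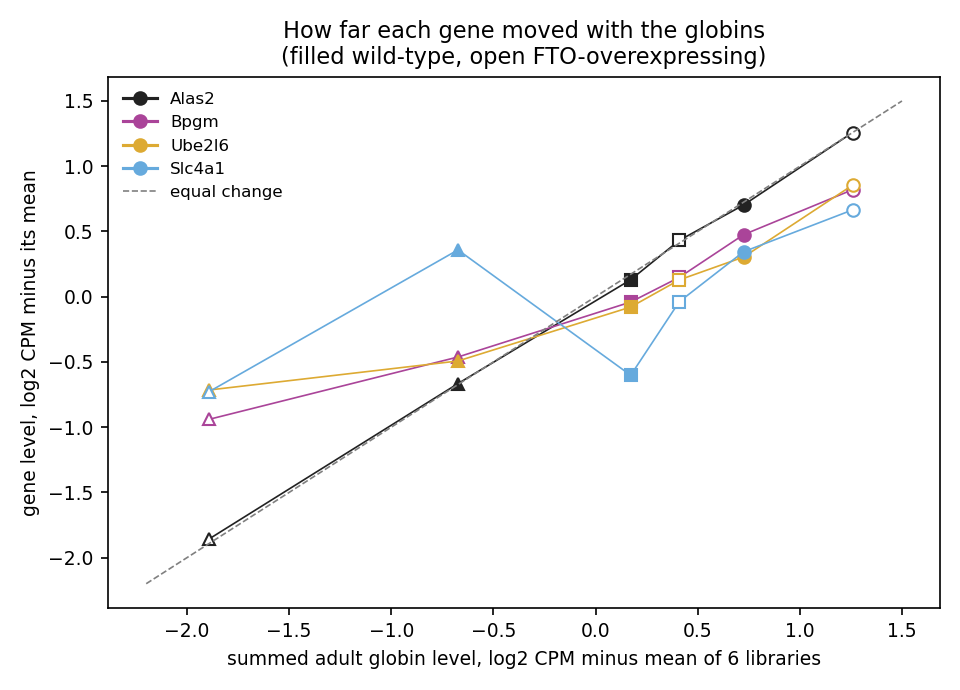
Level of 4 genes against the summed adult globin level of the same library, both as log2 CPM minus the mean of the 6 libraries; filled symbols are wild-type, open symbols FTO-overexpressing. Alas2 lies on the dashed line of equal change, Bpgm and Ube2l6 rise less steeply, and Slc4a1 is out of order in wild-type replicates 2 and 3.

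No member passed the test between genotypes. The count of members past an edgeR adjusted p of 0.05 was 0 of 7, where 0.0942% of all genes tested passed (0.0765% higher and 0.0177% lower), and 0 of 7 had an unadjusted p under 0.05 (9.44% of all genes). DESeq2 and limma-voom also called 0 of 7. The groups overlapped for each of the 7, while they did not overlap for 15.0% of all genes (10.2% higher and 4.77% lower in overexpressing lungs). The fold change of Hbb-bs was 1.16 (95% interval 0.365 to 3.66, edgeR adjusted p = 0.967) and that of Hba-a2 1.16 (0.377 to 3.57, adjusted p = 0.964). For Alas2 it was 1.18 (0.395 to 3.52), for Bpgm 1.08 (0.541 to 2.16) and for Slc4a1 0.973 (0.509 to 1.86). These intervals are wide, and with 3 libraries a group any difference inside them remains compatible with the values. The sign of the globin fold changes turned without overexpressing replicate 1, where that of Hbb-bs was -0.66 on the log2 scale, and without wild-type replicate 3 (-0.10).

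**Figure D3:**
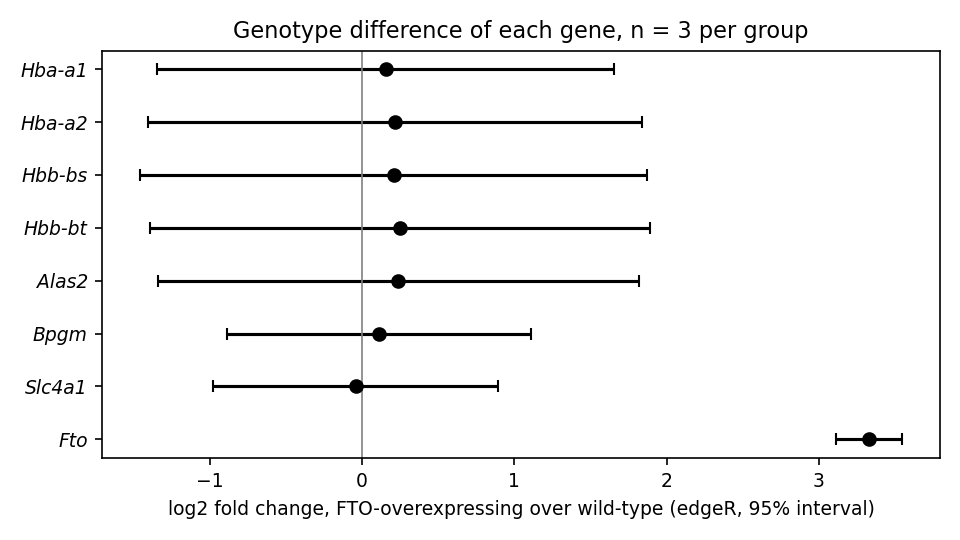
Fitted log2 fold change of each gene, FTO-overexpressing over wild-type, with its 95% interval from edgeR (n = 3 per group); the vertical line marks no difference. The intervals of the 7 blood genes all span 0, and that of Fto lies above 3.

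The genes whose level was most like the globins were sought over the 6 libraries, by Pearson's r between log2(CPM + 1) and the log2 summed globin level. 14172 named genes with a mean of at least 1 CPM were ranked. With 6 points a high r arises easily, and it is given as a description: 26 genes reached 0.9 and 80 fell to -0.9 or below. Alas2 was nearest (r = 0.9997), and Mt1 (0.984), a metallothionein, and Bpgm (0.983) were also among the genes most like them. So were Nr4a3, Or8b53, Spryd4, Mrpl47, Ube2l6, Slc25a39, Zcchc3 and Alg14, with r from 0.966 to 0.944. The ranges of these genes differed widely. Ube2l6, a conjugating enzyme for ISG15 that reticulocytes express, ranged 2.97-fold, while Slc25a39, a mitochondrial carrier linked to haem synthesis, ranged 1.24-fold and Mt1 1.45-fold. The median range of all ranked genes was 1.36-fold. Without the 2 libraries farthest from the median globin level, overexpressing replicates 3 and 1, r was 0.999 for Alas2, 0.995 for Ube2l6 and 0.981 for Bpgm. That of Slc4a1 went from 0.661 to -0.15 and so rested on those 2 libraries.

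Ube2l6 was measured at 86.3, 66.1 and 49.7 CPM in wild-type lungs, against 126.4, 76.4 and 42.6 CPM with overexpression. Its order over the libraries was that of the globins (Spearman's rho of 1 over 6 libraries, as for Alas2 and Bpgm). The genes that ran opposite to the globins, Tmem127, Zkscan17, Exoc7, Hipk1, Acat2 and Vps11, had r from -0.99 to -0.98 and ranged only 1.10-fold to 1.34-fold.

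The promoters of members are shown for the sequence features that the choice of genes did not use. Whether these bear on the levels in lung was not tested. Sequences are from RefSeq on GRCm38.p6, which need not be the build of the deposited table, matched by symbol for 6 of the 7 members. Each line gives the 110 bases before the gene start, 5′ to 3′ on the gene's strand, with capitals for 4 motifs searched on both strands: the motif CACCC, which KLF factors bind, the box CCAAT, the TATA box form ATATAA and the GATA factor motif AGATAA. In Hbb-bt the forward CCAAT directly follows a reverse match.
Hba-a1, chr11:32283562-32283671, plus strand: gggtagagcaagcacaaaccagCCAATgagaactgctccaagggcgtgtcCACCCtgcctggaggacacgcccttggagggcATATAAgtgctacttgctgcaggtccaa
Hbb-bs, chr7:103827929-103828038, minus strand: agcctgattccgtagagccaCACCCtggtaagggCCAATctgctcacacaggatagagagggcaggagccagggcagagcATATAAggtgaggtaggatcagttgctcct
Hbb-bt, chr7:103813924-103814033, minus strand: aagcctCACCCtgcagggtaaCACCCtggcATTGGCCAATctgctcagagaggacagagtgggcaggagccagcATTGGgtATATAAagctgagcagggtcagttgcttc
Alas2, chrX:150547307-150547416, plus strand: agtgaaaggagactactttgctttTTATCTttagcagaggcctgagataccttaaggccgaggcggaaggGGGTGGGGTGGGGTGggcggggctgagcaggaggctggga
Bpgm, chr6:34476246-34476355, plus strand: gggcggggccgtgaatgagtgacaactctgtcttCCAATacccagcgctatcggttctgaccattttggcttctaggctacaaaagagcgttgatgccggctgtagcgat
The window of Hba-a2 held the same 3 motifs as that of Hba-a1, 3 bases further from its annotated start. All 4 adult globin windows held the KLF motif, the CCAAT box and the TATA box form together, which 0.228% of 32851 promoter windows of this length did. This is no test of enrichment. The motifs were set by hand and not found in these data. The Hba-a2 window is that of Hba-a1 shifted by 3 bases, so the 4 windows are not separate cases. Alas2 held 3 adjoining CACCC matches and 1 match to the GATA motif, all on the reverse strand, and neither of the other motifs. Bpgm held the CCAAT box only. Taken alone, the KLF motif was found in 29.6%, the CCAAT box in 20.2%, the TATA form in 4.09% and the GATA motif in 3.99% of all windows. A match describes the letters and is not a measured binding site.

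Most other genes of the red cell programme followed the globins less closely. Of 6 embryonic and theta-type globin genes, Hba-x, Hbb-bh1 and Hbb-bh2 had 0 counts in all 6 libraries, and the other three summed to 0.233 to 1.18 CPM. Of 13 erythroid regulators 11 were tested, 0 were called between genotypes, and their r with the globins ran from -0.32 to 0.755. Klf1, the master activator of the adult beta globin genes, had 0 to 2 counts in each library, and Gata1 was at 0.896 to 3.01 CPM. Ahsp, the chaperone of free alpha chains, was at 13.3, 5.42 and 6.37 CPM in wild-type lungs, against 6.11, 4.30 and 3.31 CPM with overexpression, with a log2 fold change of -0.90 ± 0.397 (SE, edgeR adjusted p = 0.548). It was highest in wild-type replicate 1, not in the library with most globin.

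Of 12 further haem synthesis and transport genes, 0 were called and their median log2 fold change was -0.016, beside 0.0069 over all genes tested. Only Fech, the enzyme that inserts iron into the porphyrin ring, had an r with the globins above 0.5 among them (0.903), and it moved from 58.2 to 78.3 CPM, 1.35-fold. Alas1, the form of the first haem enzyme used outside red cells, was at 233.5 to 312.6 CPM and did not follow the globins (r = 0.259). Of 14 reticulocyte transcripts 12 were tested and 0 were called. Among them Isca1 (r = 0.911) and Mkrn1 (0.804) had a high r with the globins, with levels of 69.3 to 96.1 and 106.8 to 143.7 CPM. They ranged only 1.39-fold and 1.34-fold, near the median of 1.36-fold over all ranked genes. Of 11 genes of haemoglobin and iron clearance, 0 were called and none had an r above 0.486. Hmox1, which breaks down haem, was at 34.6 to 47.3 CPM, and Hp, encoding the haemoglobin-binding protein haptoglobin, at 703.2 to 965.7 CPM.

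Among red cell membrane genes, Epb42, which encodes protein 4.2, a partner of band 3, had a higher r with Slc4a1 (0.948 over the 6 libraries) than with the globins (0.580), a difference that was not tested. Epb42 was at 0.897, 0.413 and 0.942 CPM in wild-type lungs, against 0.886, 0.777 and 0.373 CPM with overexpression. As in Slc4a1, wild-type replicate 3 exceeded wild-type replicate 2, the reverse of the globins. These levels are low, 8 to 18 counts per library, and the Poisson intervals of those 2 libraries overlapped. The likeness to Slc4a1 was looked at after the values were seen. Of 15 membrane genes listed, 10 were tested and 0 were called, and broadly expressed members such as Epb41 (170.4 to 228.2 CPM) and Dmtn (11.2 to 14.2 CPM) did not follow Slc4a1 closely (r of 0.360 and -0.75).

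**Figure D4:**
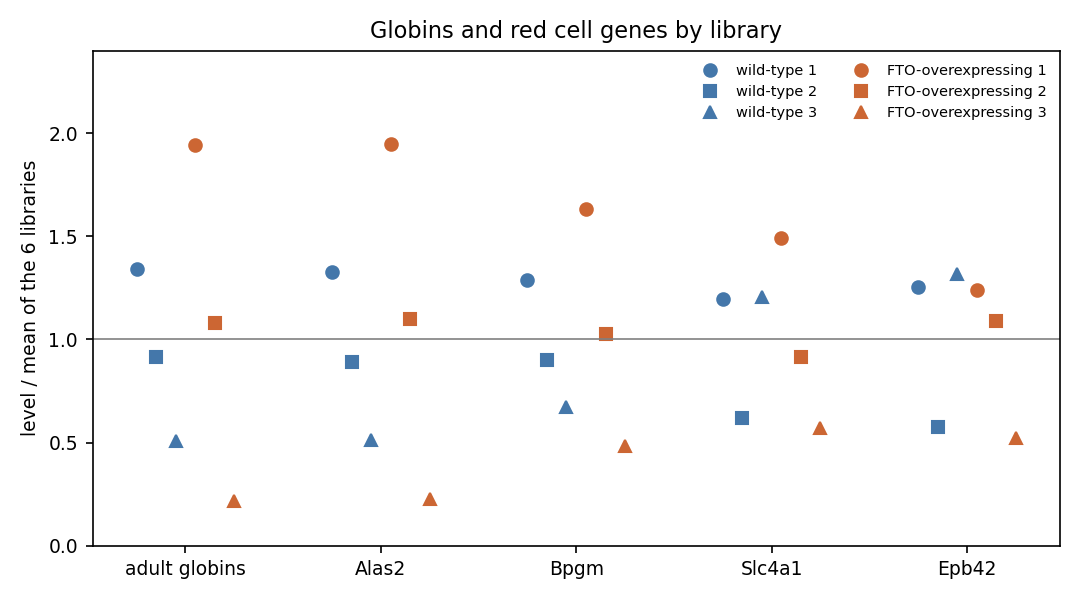
Level of the summed adult globins and of 4 genes in each library, divided by the mean of the 6 libraries, on a linear axis from 0. Wild-type replicate 3 (blue triangle) lies below wild-type replicate 2 (blue square) for the globins, Alas2 and Bpgm and above it for Slc4a1 and Epb42.

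Lymphocyte levels were then set beside the globins, library by library. The 20 T cell markers summed to 213.2, 197.2 and 157.9 CPM in the wild-type and to 445.8, 621.5 and 964.1 CPM in the FTO-overexpressing libraries. The 15 NK and cytotoxic markers summed to 85.9, 43.0 and 50.4 CPM against 344.7, 518.7 and 799.6 CPM. The overexpressing library with least globin had the highest T cell and cytotoxic levels, and the one with most globin the lowest of its group. Within the wild-type group the T cell sum was highest in the library with most globin. T cell counts per 1000 adult globin counts were 9.44, 12.8 and 18.4 in wild-type and 13.6, 34.2 and 261.7 in overexpressing lungs, so the ratio overlapped between the groups although the T cell level did not. The same ratio for the NK and cytotoxic markers was 3.81, 2.79 and 5.89 in wild-type against 10.5, 28.6 and 217.1 in overexpressing lungs, and here the groups did not overlap. Because the lymphocyte levels formed separate clusters by genotype, with 3 libraries in each, no correlation of lymphocyte genes with the globins over the 6 libraries is given.

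The 16 B cell markers summed to 587.4, 441.8 and 238.0 CPM in the wild-type libraries, the order of the globins, and to 340.2, 318.3 and 368.9 CPM in overexpressing lungs, where overexpressing replicate 3 was highest. The difference between these orders was not tested. The wild-type range of the B cell sum, 2.47-fold, was near that of the globins, 2.64-fold, and it was 1.16-fold against 8.87-fold in overexpressing lungs. Ighm, the heavy chain of IgM, carried most of the wild-type range, at 305.7, 263.6 and 118.8 CPM. It was at 143.5, 108.2 and 167.3 CPM in overexpressing lungs, with a log2 fold change of -0.75 ± 0.342 (SE, edgeR adjusted p = 0.569).

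**Figure D5:**
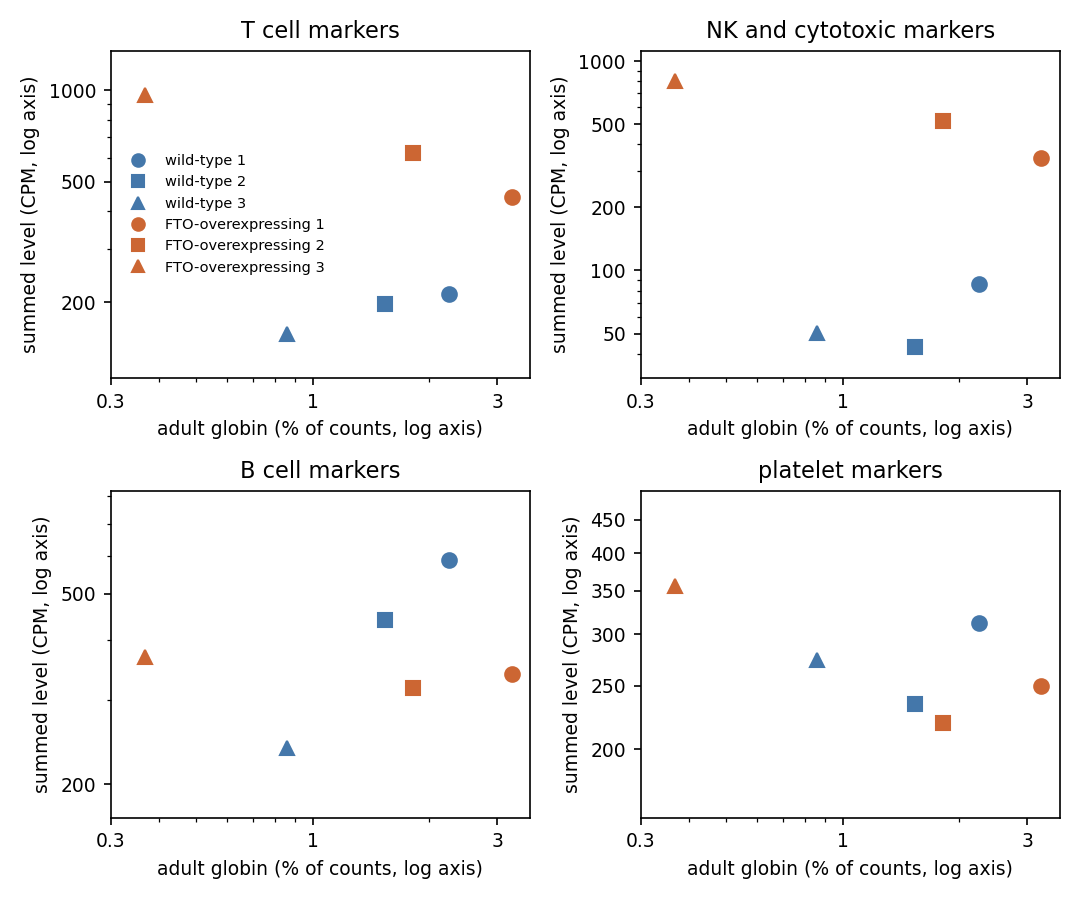
Summed level of 4 marker lists (CPM, log axis) against the adult globin share of the same library (percent of counts, log axis); symbols give the replicate number and colours the genotype. T cell and cytotoxic levels are higher in the 3 FTO-overexpressing libraries at low and high globin shares alike, and the library at 0.368% globin is the highest for T cell, cytotoxic and platelet markers.

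The genotype difference of lymphocyte genes was also fitted with the log2 summed globin level as a covariate. Without it, 3 of 20 T cell, 5 of 15 cytotoxic and 0 of 16 B cell markers were called higher, where 0.0765% of all genes were. With it, 6, 6 and 0 were called higher, where 0.112% of all genes were (0.135% in either direction), and all 8 genes called without the covariate were among them. The median fold change went from 3.26 to 2.99 for T cells, from 8.44 to 7.64 for cytotoxic cells and from 1.00 to 1.05 for B cells. Cd8a, a subunit of the CD8 co-receptor, had a log2 fold change of 2.81 without and 2.72 with the covariate (edgeR adjusted p of 0.0300 and 0.0332), and Ccl5, a chemokine of effector T cells, 3.88 and 3.76 (0.0179 and 0.0189). Cd3e, Themis, Lat and Gzmk passed only with the covariate. This fit has 3 residual degrees of freedom. The calls without the covariate are themselves fragile, with 0 of the 51 markers called on leaving out replicate 2 of either genotype or wild-type replicate 3, 4 without wild-type replicate 1 or overexpressing replicate 3, and 17 without overexpressing replicate 1. These lists were chosen with the lymphocyte difference known.

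Markers of other blood cells did not keep to the order of the globins. All 13 platelet genes were tested and 0 were called. Each had a negative r with the globins, from -0.82 for Pf4 to -0.017 for Gp6. A negative r was common, with a median of -0.16 over the 14172 ranked genes. The platelet genes summed to 311.8, 234.6 and 274.0 CPM in wild-type lungs, against 249.9, 219.6 and 356.2 CPM with overexpression, highest in the library with least globin. Neutrophil genes summed to 2080, 2352 and 1674 CPM against 2511, 1580 and 3309 CPM, again highest there, and 0 of 12 were called. Among 8 genes of circulating and naive lymphocytes 0 were called, where 0.0942% of all genes tested were. Of these 8, 4 were higher and 2 lower in overexpressing lungs with no overlap between the groups, beside 10.2% and 4.77% of all genes tested. S1pr4, a sphingosine 1-phosphate receptor of lymphocytes, was at 14.9 to 17.7 CPM in wild-type and 22.3 to 33.9 CPM in overexpressing libraries. S1pr5, a receptor of the same family found on NK cells, was at 1.44 to 6.17 against 10.2 to 13.3 CPM, and Tcf7, a transcription factor of naive T cells, at 34.5 to 38.8 against 42.4 to 53.4 CPM. S1pr1, another receptor of the family that endothelium also expresses, was lower, at 326.0 to 354.5 against 250.7 to 308.7 CPM, as was Klf2, a factor of both cell types, at 101.6 to 155.0 against 66.5 to 98.8 CPM. Of 11 endothelial markers 0 were called, and their sum ranged 1.15-fold over the 6 libraries, beside 8.87-fold for the globins. Of 10 markers of alveolar type 2 cells 0 were called, and their sum ranged 1.24-fold. In both lists 0 genes had a positive log2 fold change. The median was -0.14 for endothelium and -0.26 for alveolar type 2 cells, beside 0.0069 over all genes tested. With no overlap between the groups, 2 of the 11 and 5 of the 10 were lower in overexpressing lungs, beside 4.77% of all genes tested. The part of blood content in the lymphocyte levels was not tested. The covariate fit cannot test it, because the globin level measures red cell RNA and not the lymphocytes of blood.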

How the data were processed

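Poly(A) RNA of 6 lung samples was sequenced with a stranded kit, per the labels' protocols. The submitters' processing notes name fastp, HISAT2 and StringTie; not given in the sources used here are versions, genome build, annotation and counting program. The authors deposited expected counts per gene, estimated and not scaled to library size; 9.66% to 10.3% of rows per library were not whole. Levels are CPM of the column total from these values. For tests they were rounded and fitted in R 4.3.3 with edgeR 4.0.16 (default filter, TMM, quasi-likelihood F-test, group only; adjusted p threshold 0.05). Fold changes are on the TMM scale. 525 of 57180 rows had an identifier but no symbol (0.119% to 0.143% of counts) and were kept. Alternatives were other scalings and filters, adult globins left out, a replicate block, a globin covariate, DESeq2 1.42.0, limma-voom (limma 3.58.1) and each library left out. The edgeR fit was tested on simulated data, where 78% of 2-fold and 97% of 4-fold changes were recovered. Of its 194 calls 19 were false. How far these values hold for the real libraries was not tested. There the SE of a member's log2 fold change ran from 0.402 (Slc4a1) to 0.715 (Hbb-bs). Libraries of a group differed by more than counting noise (chi-square per degree of freedom of 28.1 to 48.7). Per-length levels use exon lengths of GENCODE M21.

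The members and lists were chosen with earlier results of these data known. Named were the 7 members, Fto, in each list the 3 genes with the smallest p and the 3 with the highest mean, and the 12 genes most like and 6 least like the globins, leaving out predicted loci; other genes, such as those changed by the covariate, Isca1, Dmtn, Gata1 and Hmox1, were named after their values were seen. Some genes that this rule names are not reported here.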

Additional observations from a re-analysis of the deposited data

How the results depend on the processing

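The members' count of calls was 0 under every alternative run, and the summed globin difference (log2 -0.15) moved by less than the spread between replicates, running from -0.81 to 0.76 as each library was left out. The sign of single members was not stable. With the replicate block it turned for Hba-a1 (-0.19), Hba-a2 (-0.17), Hbb-bs (-0.17), Hbb-bt (-0.11), Alas2 (-0.12) and Bpgm (-0.0099). With limma-voom it turned for the same genes (-0.18, -0.17, -0.17, -0.10, -0.14 and -0.013). With the globin covariate Hba-a1 (-0.056), Hba-a2 (-0.033) and Hbb-bs (-0.027) also turned. That covariate is the summed level of the globin genes themselves, so the sign or call of a globin gene in that fit is no check. Without 1 library the log2 fold change ran from -0.59 to 0.63 for Hba-a1, -0.56 to 0.70 for Hba-a2, -0.66 to 0.70 for Hbb-bs, -0.57 to 0.74 for Hbb-bt, -0.56 to 0.72 for Alas2, -0.51 to 0.25 for Slc4a1 and -0.42 to 0.46 for Bpgm. The cause was not tested.

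Of all genes 16 were called, and 287 with no filter, 2 with the replicate block, 417 with DESeq2, 5 with limma-voom and 1 to 49 without 1 library. Of T, NK and B cell markers 8 were called, and 30, 1, 32 and 1 in the same order and 0 to 17 without 1 library. The labels do not say whether replicate numbers pair the samples. Over all genes tested, deviations of same-numbered libraries correlated at 0.146, -0.34 and -0.38, and only those numbered 1 correlated best with each other. The summed globin level, however, fell from replicate 1 to 2 to 3 in both genotypes. Each member's SE was smaller with the replicate block, at 0.343 against 0.646 for Hba-a1 and 0.351 against 0.402 for Slc4a1. Whether the numbers mark pairs was not tested. The covariate is itself built from the 4 globin genes. With 3 libraries a group and an 8.87-fold range of globin, the intervals of the globin genes were wide. The size of difference that could be detected in the members was not computed.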
